A study of Bos taurus with 20 samples.

Results

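The transcription factors FOXL2, GATA4, GATA6, NR5A1, NR5A2, WT1, NR2F1, NR2F2, RUNX1, and RUNX2 were chosen by gene name among the non-control probes of a custom bovine Agilent microarray. All 10 were on the array, as 10 of 22550 genes and 24 of 61325 spots. The series held 20 arrays of cells from bovine follicles of 3 to 6 mm, with 4 replicates in each of 5 groups: theca (TH), granulosa (GC), and cumulus cells (CC), CC matured in vitro for 4 h (CC after IVM), and oocytes (OO). TH were scraped from the follicle wall, GC and the cumulus-oocyte complexes were recovered from punctured follicles, and TH, GC, CC before IVM, and OO were labelled immature. The ovaries came from slaughtered cattle, and age, breed, and cycle stage were not given in the sources used here. TH, GC, CC, and OO stood together on the same pair of slides, replicates 1 and 2 on slide 1 and replicates 3 and 4 on slide 2, whereas all 4 arrays of CC after IVM were on slide 3.

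These factors set up and hold the identity of the somatic cells of the gonad. In the mammalian ovary, FOXL2 keeps granulosa cells from taking a testis-like fate, and GATA4 and GATA6 are zinc finger factors that act with cofactors on steroidogenic and inhibin genes. The nuclear receptors NR5A1 (SF-1) and NR5A2 (LRH-1) bind the same kind of response element in the promoters of steroidogenic genes. WT1 acts early in the gonadal ridge, NR2F1 and NR2F2 (COUP-TFI and COUP-TFII) are orphan nuclear receptors typical of mesenchymal, stromal, and vascular cells, and RUNX1 and RUNX2 bind DNA with the shared partner CBFB. In granulosa and cumulus cells, RUNX1 and RUNX2 are known for their induction around ovulation.

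Each spot carried a 60-base probe, and what the probes of a gene share determines how far 2 spots measure separately. Positions are those of the transcript models in the files (build UMD 3.1). The FOXL2 probes lay in the transcript at chr1:131242444-131243577 and shared 58 of 60 bases, and those of RUNX1 lay in the transcript at chr1:148678710-148773773 and shared 50 bases. In the following lines the shared stretch is in capitals.
FOXL2 probe 1: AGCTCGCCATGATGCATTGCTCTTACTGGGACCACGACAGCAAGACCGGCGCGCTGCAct
FOXL2 probe 2: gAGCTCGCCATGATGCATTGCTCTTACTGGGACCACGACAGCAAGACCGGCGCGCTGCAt
RUNX1 probe 1: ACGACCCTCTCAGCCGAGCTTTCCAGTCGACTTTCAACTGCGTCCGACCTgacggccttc
RUNX1 probe 2: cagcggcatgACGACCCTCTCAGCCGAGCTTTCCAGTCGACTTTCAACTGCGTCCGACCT

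The NR5A2 probes (chr16:80751686-80877243) shared 40 bases, so for FOXL2, RUNX1, and NR5A2 both spots read almost the same stretch of the transcript. By contrast, the longest run shared by the probes of GATA6 (chr24:34549658-34579148) was 5 bases, and by those of NR5A1 (chr11:95514365-95538847) and RUNX2 (chr23:18671464-18805208) 6 bases. The NR5A1 probes are shown by their first 30 bases, since their spots differed after IVM, and the GATA6 probes in full, since they gave the same direction from separate stretches.
NR5A1 probe 1: tttttattacgctgacccaggaccccacca
NR5A1 probe 2: actgctggcacttgcctgctactcagagtg
GATA6 probe 1: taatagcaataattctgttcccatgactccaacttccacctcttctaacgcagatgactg
GATA6 probe 2: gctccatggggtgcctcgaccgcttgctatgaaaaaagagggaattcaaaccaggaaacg

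GATA4 (chr8:7478856-7527262) and WT1 (chr15:63913734-63965294) had 2 separate probes each. NR2F1 (chr7:95454540-95464057) had 4 spots of 3 sequences, and NR2F2 had 4 spots of 2 sequences, each sequence spotted under both transcript models (chr21:10793104-10800183 and chr21:10793454-10806663). No member probe sequence was used under a second gene name.

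Values are log2 intensity relative to the 75th percentile of the same array, taken as the median of a gene's spots, so that 0 is the level of that percentile and a difference of 1 is a doubling. Of the probes, 54.2% to 62.8% were well above background on the somatic arrays, and 49.3% to 68.8% on the OO arrays, where replicate 2 was lowest. Marker genes followed the labels. The summed level of 4 theca markers (CYP17A1, INSL3, COL1A1, COL1A2) was 421 to 667 in TH, 25.7 to 99.7 in GC, and 24.4 to 31.4 in CC, on a linear scale where 1 is the 75th percentile. The sum of 4 granulosa and cumulus markers was 18.1 to 33.4 in TH, 110 to 451 in GC, and 381 to 393 in CC, and the sum of 6 oocyte markers was 248 to 330 in OO and at most 3.00 in CC. The sum of 6 endothelial markers was 2.76 to 5.72 in TH against at most 0.44 in GC and 0.19 in CC, but it was 2.93 to 4.46 in OO, where TEK alone was at 1.33 ± 0.13 on the log2 scale (0.46 ± 0.41 in TH). GC replicates 2 and 3 had the highest theca marker sums of the GC arrays (99.7 and 86.2, against 25.7 and 32.2).

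All 10 factors differed over TH, GC, CC, and OO in limma's F-test with Benjamini–Hochberg adjustment (adjusted p from 8.0e-14 for GATA4 to 3.0e-05 for WT1), as did 71.3% of all genes. Well above background on at least 3 of 4 arrays were 9 factors in TH, 8 in GC, 9 in CC, 8 in CC after IVM, and 8 in OO. In what follows a factor is called higher or lower where limma's adjusted p was under 0.05. In these bulk samples, fewer cells of a type and less RNA per cell cannot be told apart.

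**Figure D1:**
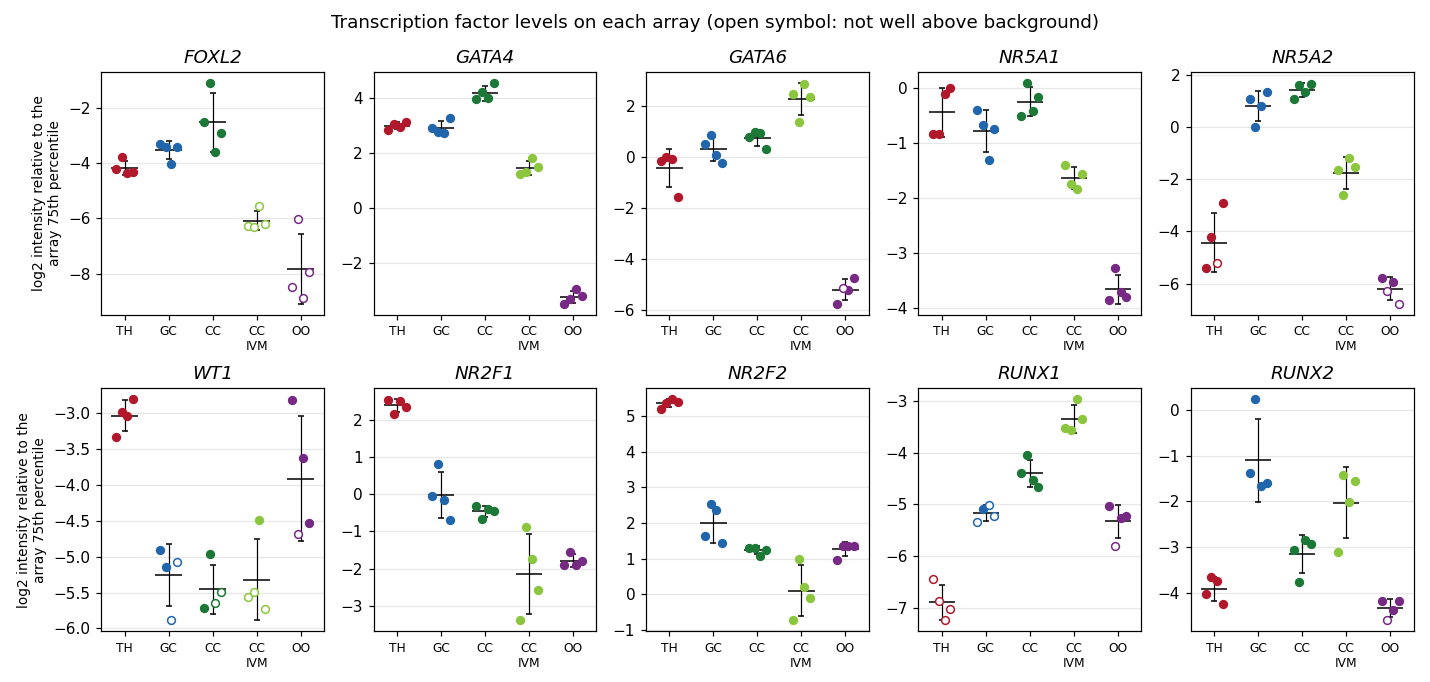
Level of each transcription factor on each of the 20 arrays (y axis, log2 intensity relative to the array's 75th percentile, scale set per gene) in TH, GC, CC, CC after 4 h IVM, and OO (x axis). Points are arrays, open points were not well above background, and lines with bars are the mean ± SD (n = 4); NR2F1 and NR2F2 stand highest in TH, NR5A2 in GC and CC, and GATA4 in CC.

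Between TH and GC, NR2F2, NR2F1, and WT1 were higher in TH, and NR5A2, RUNX2, and RUNX1 were lower, so that 3 of 10 factors were called in each direction. Over all genes, 11.8% were called higher and 14.5% lower in TH. Between TH and CC, the same 3 were higher, and 5 were lower (NR5A2, RUNX1, FOXL2, GATA4, and GATA6), beside 14.4% and 17.4% of all genes. The median difference of the 10 factors was −0.28 between TH and GC and −0.98 between TH and CC, and over all genes it was −0.22 and −0.00029.

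NR2F2 was at 5.21, 5.36, 5.48, and 5.40 on the TH arrays, at 1.64, 2.53, 2.38, and 1.44 in GC, and at 1.31, 1.31, 1.08, and 1.25 in CC. Every TH array lay above every GC array, and every GC array above every CC array. The level in TH exceeded that in GC by 3.37 ± 0.22 (SE; adjusted p = 3.5e-08), a 10.3-fold difference, and that in CC by 4.12 ± 0.22 (adjusted p = 2.2e-09), 17.4-fold. NR2F1 showed 2.53, 2.15, 2.49, and 2.33 in TH, −0.059, 0.81, −0.16, and −0.70 in GC, and −0.31, −0.67, −0.40, and −0.45 in CC. TH arrays again lay above all others, while GC and CC overlapped. The TH level was higher than in GC by 2.40 ± 0.24 (adjusted p = 2.8e-06) and than in CC by 2.83 ± 0.24 (adjusted p = 2.8e-07).

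The excess in TH over the mean of GC and CC was 3.74 for NR2F2 and 2.62 for NR2F1, and the difference between these was 1.13 (exact permutation test over the 4 TH and 8 other arrays, two-sided p = 0.00404, the smallest this design allows; adjusted p = 0.0242 over the 12 tests of related pairs). NR2F2 in GC was higher on replicates 2 and 3, the arrays with the higher theca marker sums (the part of theca cells in this was not tested). NR2F1 in GC was highest on replicate 2 (0.81), but replicate 3 (−0.16) lay below replicate 1 (−0.059). WT1 in GC was lowest on replicate 3 (−5.88). Pericyte and smooth muscle markers were also higher in TH (sum of 217 to 246, against 8.90 to 24.7 in GC and 3.08 to 4.73 in CC), and their part in the TH levels of NR2F1 and NR2F2 was not tested.

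WT1 was −3.33, −2.98, −3.03, and −2.80 in TH, −4.91, −5.14, −5.88, and −5.08 in GC, and −5.71, −4.96, −5.65, and −5.49 in CC. It was well above background on all 4 TH arrays and on 2 of 4 arrays each of GC and CC. The ranges did not overlap, and WT1 was higher in TH than in GC by 2.22 ± 0.35 (adjusted p = 0.00020) and than in CC by 2.42 ± 0.35 (adjusted p = 6.0e-05). With normexp background correction the difference between TH and GC was 0.47 (adjusted p = 0.12, over a range of 2.8e-05 to 0.13 in all alternatives).

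NR5A2, a receptor that granulosa cells of mice need for ovulation, had the widest difference between TH and the other somatic cells among the 10 factors. Its level was −5.39, −4.22, −5.20, and −2.91 in TH, 1.06, 0.018, 0.79, and 1.33 in GC, and 1.07, 1.60, 1.34, and 1.66 in CC. TH arrays, 3 of 4 well above background, were spread more widely than GC or CC (SD of 1.13, against 0.56 and 0.27), and all lay below them. The factor was lower in TH by 5.23 ± 0.45 against GC (adjusted p = 5.1e-07) and by 5.85 ± 0.45 against CC (adjusted p = 8.2e-08), which was 37.5-fold and 57.6-fold. GC and CC overlapped, with a difference of 0.62 ± 0.45 that did not pass the test (adjusted p = 0.47).

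NR5A1, the related receptor of steroidogenic cells in general, did not follow this order. It was −0.83, −0.84, −0.11, and 0.0017 in TH, −0.40, −0.68, −1.30, and −0.75 in GC, and −0.51, 0.092, −0.41, and −0.16 in CC. The 3 ranges overlapped, and no difference passed the test (TH minus GC 0.34 ± 0.25, adjusted p = 0.38, and TH minus CC −0.20 ± 0.25, adjusted p = 0.66). The difference between TH and the mean of GC and CC was 5.61 log2 units apart in the 2 receptors (0.070 for NR5A1 and −5.54 for NR5A2; exact permutation test, two-sided p = 0.00404, the smallest possible; adjusted p = 0.0242).

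RUNX1 was dim in all somatic cells before IVM. In TH it was −6.44, −6.86, −7.23, and −7.01, with no array well above background, in GC −5.34, −5.09, −5.01, and −5.23, with 1 of 4 above, and in CC −4.39, −4.04, −4.52, and −4.66, with all 4 above. The ranges did not overlap, and CC stood highest. Since TH was measured only as a bound, RUNX1 was at least 1.85-fold higher in CC than in TH (adjusted p = 2.0e-07), where the bound sets each dim array at its lowest signal well above background. GC was also called higher than TH (adjusted p = 1.5e-05), but with 3 of 4 GC arrays not above background no fold is given. With normexp background correction both calls were lost, at −0.46 for TH minus CC (adjusted p = 0.14, over a range of 2.8e-08 to 0.14) and −0.54 for TH minus GC (adjusted p = 0.081, over a range of 5.5e-06 to 0.081). RUNX2 ran in another order. It was −4.01, −3.65, −3.74, and −4.24 in TH, −1.39, 0.23, −1.67, and −1.59 in GC, and −3.06, −3.76, −2.85, and −2.94 in CC. GC arrays lay above all others and TH overlapped CC. RUNX2 was lower in TH than in GC by 2.81 ± 0.35 (adjusted p = 2.1e-05), and the difference of −0.76 ± 0.35 between TH and CC did not pass the test (adjusted p = 0.12), but passed without GC replicate 2 (adjusted p = 0.012, over a range of 0.012 to 0.79).

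FOXL2 was −4.19, −3.78, −4.34, and −4.31 in TH, −3.30, −3.41, −4.01, and −3.40 in GC, and −2.48, −1.09, −3.60, and −2.90 in CC. All 12 arrays were well above background. The mean was lowest in TH and highest in CC, with overlap between TH and GC and between GC and CC. FOXL2 was lower in TH than in CC by 1.64 ± 0.55 (adjusted p = 0.034), and neither TH minus GC (−0.62 ± 0.55, adjusted p = 0.48) nor CC minus GC (1.02 ± 0.55, adjusted p = 0.32) passed the test. The difference from CC was 1.16 without CC replicate 2, the highest array (adjusted p = 0.12), and the adjusted p ran from 0.0032 to 0.15 over the alternatives, which also lost the call without TH replicate 1, 3, or 4 or CC replicate 1. It was lost as well with the percentile over commonly detected probes (adjusted p = 0.065) and within slide 1 (adjusted p = 0.15) and slide 2 (adjusted p = 0.13).

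GATA4 was level between TH (2.82, 3.05, 2.94, and 3.103) and GC (2.92, 2.76, 2.74, and 3.26), with a difference of 0.060 ± 0.18 (adjusted p = 0.84). In CC it was 3.94, 4.21, 3.99, and 4.54, above every TH and GC array. Its level in TH was lower than in CC by 1.19 ± 0.18 (adjusted p = 8.0e-05). GATA6 was −0.16, −0.0074, −0.088, and −1.58 in TH, 0.49, 0.84, 0.057, and −0.23 in GC, and 0.77, 0.97, 0.92, and 0.28 in CC. TH lay below CC on every array, and GC overlapped both. GATA6 was lower in TH than in CC by 1.19 ± 0.34 (adjusted p = 0.014), and TH minus GC was −0.75 ± 0.34 (adjusted p = 0.13). The difference from CC missed the threshold when scaled to the percentile over commonly detected probes (−0.99, adjusted p = 0.051) and within each slide (adjusted p = 0.096 and 0.10), over a range of 0.00074 to 0.10. The differences between TH and the mean of GC and CC were 0.40 apart for the 2 GATA factors (exact permutation test, two-sided p = 0.412).

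Both slides held 2 arrays each of TH, GC, CC, and OO, and the differences were recomputed within each. In TH minus GC, NR2F2 was 3.20 on slide 1 and 3.53 on slide 2, NR2F1 1.97 and 2.84, and WT1 1.87 and 2.56. The lower factors were NR5A2 at −5.34 and −5.11, RUNX2 at −3.25 and −2.36, and RUNX1 at −1.43 and −2.003. In TH minus CC, FOXL2 was −2.20 and −1.07, GATA4 −1.14 and −1.25, and GATA6 −0.96 and −1.43. FOXL2 and GATA6 were called within neither slide in TH minus CC. On slide 1, WT1 was called neither against GC nor against CC, and RUNX1 was not called against GC. Each called difference of TH had the same direction on both slides, and with slide as a block limma called 6 factors between TH and GC and 8 between TH and CC, as without it. NR5A1 in TH minus GC was −0.29 on slide 1 and 0.97 on slide 2, with opposite signs.

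**Figure D2:**
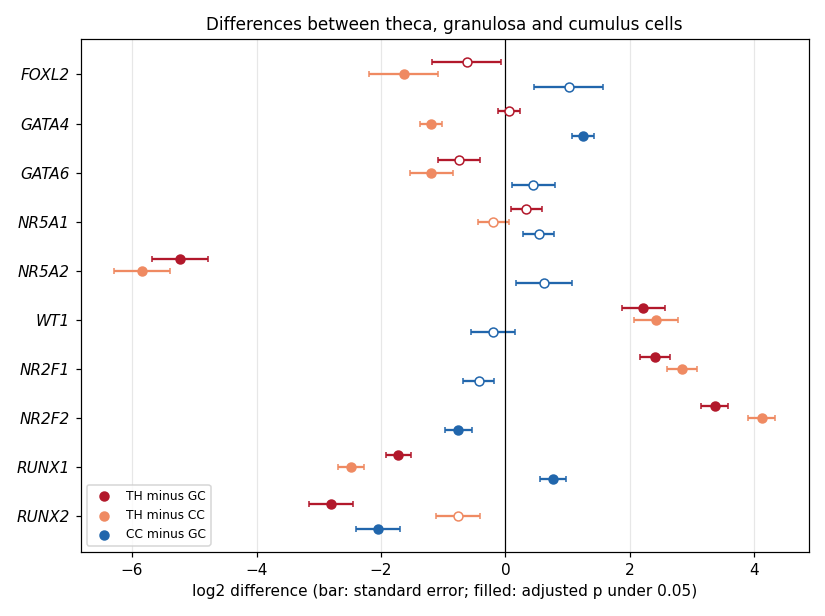
Differences between the somatic cell types (x axis, log2; TH minus GC, TH minus CC, and CC minus GC in colour) for each factor (y axis), with bars for the standard error of limma's fit of 16 arrays and filled points where the adjusted p was under 0.05. NR2F1, NR2F2, and WT1 lie to the right for TH, NR5A2 lies between −5.23 and −5.85, and only 4 factors are filled between CC and GC.

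Between CC and GC, the cells next to the oocyte and those of the follicle wall side, 4 of 10 factors were called, GATA4 and RUNX1 higher in CC and RUNX2 and NR2F2 lower. Over all genes, 5.28% were called higher and 4.61% lower in CC. The median difference was 0.49 for the 10 factors and −0.16 for all genes. GATA4 was higher in CC by 1.25 ± 0.18 (adjusted p = 0.00040), 2.38-fold, and both probes gave this direction. RUNX2 was lower in CC by 2.05 ± 0.35 (adjusted p = 0.0015), 4.13-fold, with GC replicate 2 far above the other GC arrays. RUNX1 was higher in CC by 0.77 ± 0.21 (adjusted p = 0.029). It was above background on 1 GC array only, and normexp background correction gave −0.078 (adjusted p = 0.79, over a range of 0.0063 to 0.79 in all alternatives). The call was also lost without GC replicate 1, 2, or 4 or CC replicate 1 or 2, with a difference of 0.65 to 0.79. It was lost as well with the authors' log2 values (0.24, adjusted p = 0.40) and the brightest probe (0.52, adjusted p = 0.36). The percentile over commonly detected probes gave 0.68 (adjusted p = 0.066). NR2F2 was lower in CC by 0.75 ± 0.22 (adjusted p = 0.039), and without GC replicate 2, which had the highest theca marker sum, by 0.58 (adjusted p = 0.12, over a range of 0.0071 to 0.43). Leaving out GC replicate 3, any CC array, TH replicate 1, 2, or 3, or OO replicate 3 or 4 also ended that call. So did scaling by the array median (adjusted p = 0.097), the authors' log2 values (adjusted p = 0.16), and 1 fit of 20 arrays (adjusted p = 0.14). Within each slide alone, with 2 arrays per group, limma called 0 of 10 factors, and 3 on slide 1 and 4 on slide 2 had an unadjusted p under 0.05. Of all 22550 genes, limma called 185 within slide 1 and 449 within slide 2, against 2229 with both slides. The differences were 1.24 and 1.27 for GATA4 on slides 1 and 2, −2.83 and −1.26 for RUNX2, 1.00 and 0.53 for RUNX1, and −0.77 and −0.74 for NR2F2.

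The difference between CC and GC was 2.81 log2 units apart for RUNX1 and RUNX2, in opposite directions (exact permutation test over 4 and 4 arrays, two-sided p = 0.0286, the smallest possible; adjusted p = 0.0686 over 12 tests). For GATA4 and GATA6, both higher on average in CC, the differences were 0.80 apart (exact p = 0.114). NR5A1 and NR5A2 were 0.53 and 0.62 higher on average in CC and were 0.086 apart (exact p = 0.857), and neither passed the test on its own. WT1 and NR2F1 also did not pass it (−0.20 ± 0.35 and −0.43 ± 0.24).

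After 4 h of IVM, 9 of 10 factors were called different from CC before IVM. Lower were FOXL2, NR5A2, GATA4, NR2F1, NR5A1, and NR2F2, and higher were GATA6, RUNX2, and RUNX1. Over all genes, 30.3% were called higher and 15.5% lower, and the median gene was 0.37 higher after IVM, against 0.013 with quantile normalization and 0.014 over the genes well above background. The median difference of the 10 factors was −1.27. Taken relative to the median of all genes, detected or not, the rises were 1.16 for GATA6, 0.76 for RUNX2, and 0.68 for RUNX1. The falls on that scale ran from −1.51 for NR2F2 to −3.53 for NR5A2, leaving aside FOXL2, for which only a bound is known. Against the genes well above background, with a median of 0.014, the differences stay nearly as measured. Since every array of CC after IVM was on slide 3 and none of CC before IVM was, IVM and slide cannot be told apart in any of these values. The arrays after IVM had a lower 75th percentile (median intensity of 333, against 585 before), and the part of this in the differences was not tested.

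Marker sums also differed between the groups. The sum of 2 expansion markers was 0.39 to 0.88 before and 4.31 to 7.15 after IVM. HAS2, which makes the hyaluronan of the expanding cumulus matrix, was −5.56 ± 0.72 before (2 of 4 arrays above background) and 2.20 ± 0.59 after on the log2 scale, whereas PTX3, which stabilizes that matrix, was −0.66 ± 0.52 and −0.77 ± 0.98. The granulosa and cumulus sum was 381 to 393 before and 625 to 769 after IVM, and most of it was INHBA, at 8.32 ± 0.039 and 9.39 ± 0.13. The means of the other markers were lower after IVM, 5.97 and 4.93 for AMH, 2.29 and 1.04 for FSHR, and 0.26 and −0.998 for CYP19A1.

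The leukocyte sum was 0.15 to 0.74 before and 0.85 to 2.36 after IVM, with 3 and 4 of its 6 markers above background on at least 3 arrays. CD68 was −2.89 ± 0.66 before and −0.73 ± 0.55 after, CD14 −3.90 ± 1.26 and −1.57 ± 1.63, and CD53 −4.90 ± 1.97 (1 array above background) and −2.11 ± 1.85 (all 4). PTPRC was above background on no array of either group. The oocyte sum was 0.56 to 3.00 before and 0.16 to 0.56 after. The part of these cell types in the changes after IVM was not tested.

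FOXL2 went from −2.48, −1.09, −3.60, and −2.90 in CC to −6.27, −6.31, −5.56, and −6.18 after IVM, where no array was well above background. Since only a bound is known after IVM, FOXL2 was at least 4.68-fold lower on this scale (adjusted p = 0.00037). Over the 19 alternatives its difference ran from −3.92 to −0.66 (adjusted p of 1.6e-05 to 0.041), and the smallest fell short of that bound. NR5A2 went to −1.64, −2.62, −1.20, and −1.54, all below the CC arrays and all above background, lower by 3.17 ± 0.31 (adjusted p = 6.6e-05), 8.97-fold. GATA4 reached 1.24, 1.30, 1.81, and 1.48, also without overlap, lower by 2.71 ± 0.22 (adjusted p = 2.2e-05), 6.55-fold. These 3 were the largest falls among the 10 factors, and each kept its call in all 19 alternatives.

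GATA6 moved the other way from GATA4. It was 2.46, 1.36, 2.86, and 2.34 after IVM, every array above the CC arrays, and higher by 1.52 ± 0.32 (adjusted p = 0.0055), 2.87-fold. Its separate probes differed by 1.28 and 1.76. The changes of GATA4 and GATA6 were 4.23 log2 units apart (exact permutation test over 4 and 4 arrays, two-sided p = 0.0286, the smallest possible; adjusted p = 0.0686).

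**Figure D3:**
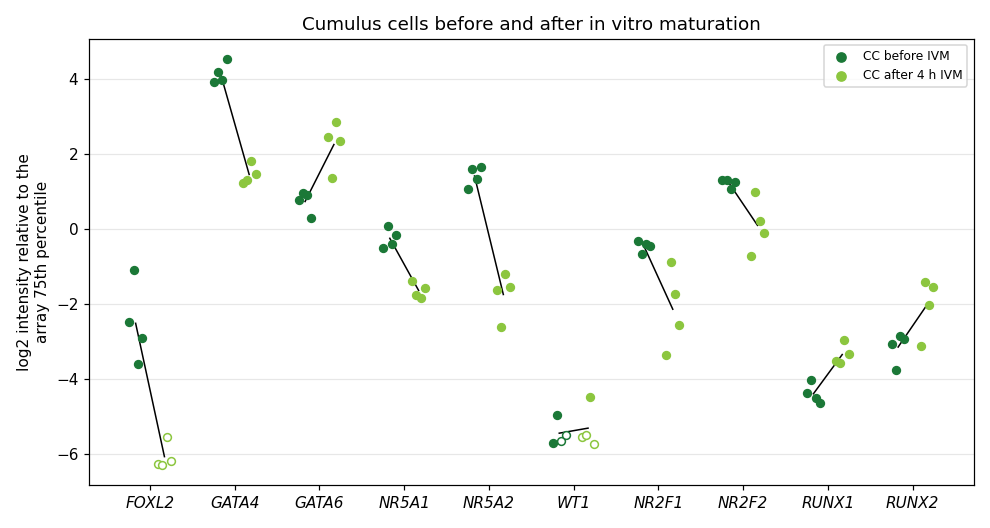
Level of each factor (x axis) in CC before IVM (dark) and after 4 h IVM (light) as log2 intensity relative to the array's 75th percentile (y axis), with 1 point per array, open where it was not well above background, and lines joining the means. GATA4 falls from 4.17 to 1.46 while GATA6 rises from 0.74 to 2.26, and FOXL2 drops to open points.

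NR5A1 was −1.39, −1.75, −1.84, and −1.57 after IVM, below every CC array, and the median of its spots, 1 of them not above background after IVM, was lower by 1.39 ± 0.21 (adjusted p = 0.00077). Its probes did not give the same change. Probe 1, above background on all 20 arrays, was 3.48 ± 0.31 in CC and 3.42 ± 0.35 after IVM (mean ± SD, n = 4), a difference of −0.057, and probe 2, above background on all 4 CC arrays and on none after IVM, was −3.97 ± 0.68 and −6.70 ± 0.10, which sets it at least 1.71-fold lower. With the brightest probe alone the call was lost (−0.057, adjusted p = 0.87), and likewise with normexp background correction (−0.077, adjusted p = 0.60), over a range of 1.4e-05 to 0.87 in all alternatives. The change of NR5A1 after IVM therefore rested on 1 of its 2 probes. Before IVM, probe 1 was 3.69 ± 0.32 in TH and 3.68 ± 0.33 in GC, close to its level in CC. Probe 2 was −4.58 ± 0.67 in TH (3 of 4 arrays above background) and −5.24 ± 0.81 in GC (2 of 4). The probes gave opposite signs in CC minus GC (−0.21 and 1.27) and in TH minus CC (0.22 and −0.61), neither of which was called.

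NR2F1 reached −3.37, −0.89, −1.75, and −2.56 after IVM, all below CC, and was lower by 1.68 ± 0.45 (adjusted p = 0.017). NR2F2 reached −0.72, 1.00, 0.20, and −0.092, also all below CC, and was lower by 1.14 ± 0.32 (adjusted p = 0.021). Both varied more after IVM than before (SD of 1.07 against 0.15 for NR2F1, and 0.71 against 0.11 for NR2F2), and replicate 1 was lowest and replicate 2 highest for both. The call of NR2F2 was lost without CC replicate 1 (adjusted p = 0.054) or replicate 4 of CC after IVM (adjusted p = 0.053), over a range of 0.00091 to 0.054.

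RUNX1 was −3.53, −3.57, −2.97, and −3.34 after IVM, above every CC array and above background throughout, and higher by 1.05 ± 0.22 (adjusted p = 0.0051), 2.07-fold. RUNX2 was −3.11, −1.42, −2.02, and −1.55, of which replicate 1 lay within the range of CC, and was higher by 1.13 ± 0.38 (adjusted p = 0.035). The changes of RUNX1 and RUNX2 were 0.077 apart (exact permutation p = 0.857). The call of RUNX2 held in 8 of 19 alternatives (adjusted p of 0.00090 to 0.090) and was lost without any one of CC replicates 1 to 4 or of replicates 2 to 4 after IVM, whereas RUNX1 kept its call in all 19. WT1 was −5.56, −5.50, −4.49, and −5.73 after IVM, above background on 1 array, and its difference of 0.13 ± 0.30 did not pass the test (adjusted p = 0.73).

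**Figure D4:**
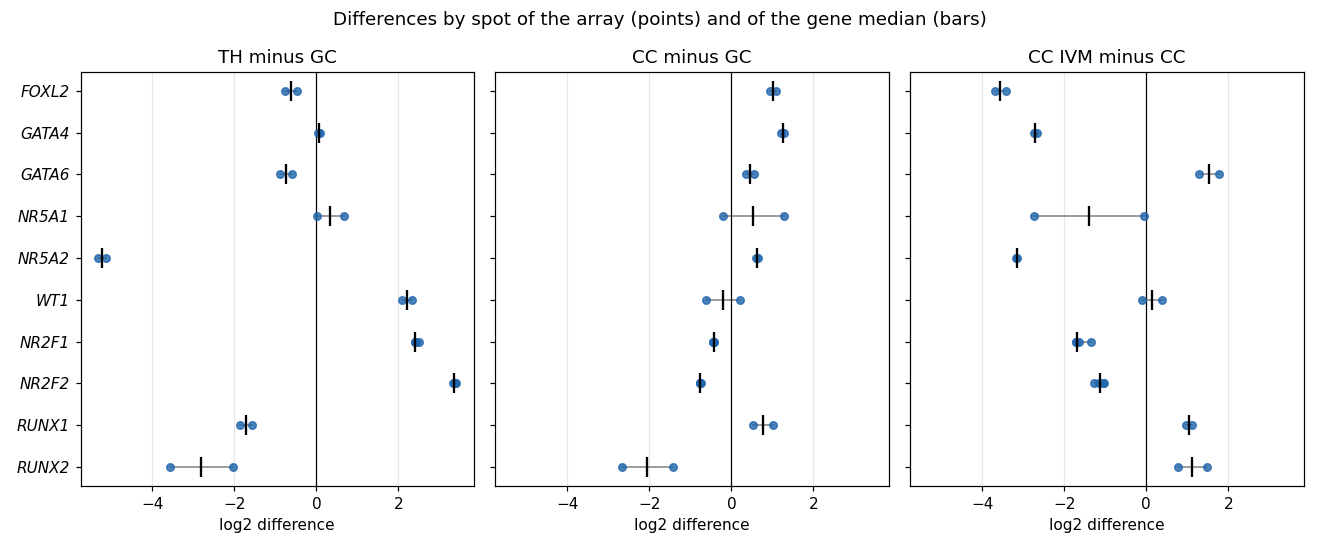
Difference of each spot (points) and of the gene median (bars) in TH minus GC, CC minus GC, and CC after IVM minus CC (x axes, log2) for each factor (y axis), with lines joining the spots of a gene. The spots of NR5A1 lie at −0.057 and, for the probe not above background after IVM, at −2.73, while those of NR5A2 lie at −3.16 and −3.17.

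In all 36 called differences of a factor, counting OO, every spot of the gene had the same direction. Each call was made on the median of these same spots, and some probes share most of their bases, so this is not separate support. The 36 include NR5A1 after IVM, with spots at −0.057 and −2.73. Beside those of NR5A1, the spots of RUNX2 were farthest apart after IVM, with differences of 0.78 and 1.47.

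In OO, beside the somatic cells, 8 of 10 factors were lower and 1 higher than the mean of the somatic cells TH, GC, and CC, where over all genes 38.3% were lower and 32.9% higher. The median difference was −2.79 for the factors and −0.52 for all genes. The 75th percentile that sets the scale was higher on OO arrays, with a median intensity of 1745. The somatic groups before IVM ranged from 437 (GC) to 585 (CC). How far this shift enters the OO differences and folds was not tested. GATA4 was −3.48, −3.30, −2.93, and −3.18 in OO, lower by 6.58 ± 0.15 (adjusted p = 6.2e-15), 95.6-fold. NR5A2, GATA6, and NR5A1 were lower by 5.45, 5.41, and 3.17. NR5A2 was above background on 2 of 4 OO arrays, and its OO mean of −6.19 was nearer to TH (−4.43) than to GC (0.80) or CC (1.42). GATA6 probe 1 and NR5A1 probe 2 were above background on no OO array. FOXL2, also above background on no OO array, was at least 5.66-fold lower (adjusted p = 2.6e-07), with differences of −5.03 to −2.23 over the alternatives. For each of these factors, and for NR2F1, every OO array lay below all 12 TH, GC, and CC arrays. The share of all genes without such overlap was not counted.

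The COUP-TF receptors were not at the floor in OO. NR2F2 was 0.98, 1.37, 1.37, and 1.37 there, with a mean of 1.27 close to the 1.24 of CC. It was lower than the mean over TH, GC, and CC by 1.59 ± 0.18 (adjusted p = 7.3e-07). NR2F1 was −1.91, −1.54, −1.90, and −1.80, below all 12 arrays of TH, GC, and CC but within the range of CC after IVM, and lower by 2.42 ± 0.20 (adjusted p = 1.9e-08). RUNX2 (−4.17, −4.59, −4.38, and −4.18) was lower by 1.61 ± 0.29 (adjusted p = 0.00011) and overlapped TH. RUNX1 (−5.03, −5.79, −5.26, and −5.22) did not pass the test (0.16 ± 0.17, adjusted p = 0.40). WT1 (−2.81, −4.68, −3.62, and −4.52) was higher by 0.67 ± 0.29 (adjusted p = 0.048), overlapped the somatic arrays, and was lower by 0.57 with normexp background correction (adjusted p = 0.0039, over a range of 0.0039 to 0.29). Without OO replicate 1, the highest array, the difference was 0.31 (adjusted p = 0.29), and 11 of 29 alternatives kept the call.

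Of 16 partners and relatives of these factors, 6 were higher and 5 lower in TH than in GC, beside 11.8% and 14.5% of all genes. TCF21, a mesenchymal bHLH factor, was higher in TH by 5.05 ± 0.60 (adjusted p = 1.3e-05), and GATA2, above background on 1 of 4 GC arrays, by 5.55 ± 0.52 (adjusted p = 1.2e-06). GATA5, on 4 TH and 3 GC arrays, was higher by 5.42 ± 0.63 (adjusted p = 1.0e-05). In CC no array was above background, and TH was at least 91.4-fold higher. LHX9, a LIM homeobox factor of the early gonad, was higher in TH than in GC by 5.04 ± 0.34 (adjusted p = 5.4e-08), with 2 of 4 GC arrays above background. EMX2, a homeobox factor of the urogenital ridge, was lower in TH by 4.16 ± 0.55 (adjusted p = 3.5e-05), and LHX2 at least 2.505-fold lower. CITED2, a coactivator that works with WT1 and NR5A1, was lower in TH than in GC by 1.18 ± 0.20 (adjusted p = 0.00041) and lower in CC than in GC by 2.04 ± 0.20 (adjusted p = 2.0e-05).

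After IVM, 3 of the 16 were higher and 4 lower, beside 30.3% and 15.5% of all genes. Their median was 0.12, against 0.37 for all genes. RUNX3, the third member of the RUNX family, was 2.76 ± 0.21 higher (adjusted p = 1.9e-05), above background on 1 array before and 4 after. CBFB, the partner of all RUNX factors, was 0.57 ± 0.18 higher (adjusted p = 0.030), which was 0.20 over the median gene, and the call was lost without CC replicate 2, 3, or 4 or replicate 4 after IVM (adjusted p up to 0.085), with the brightest probe (adjusted p = 0.14), and with a replicate block (adjusted p = 0.082). NR0B2 also passed the test, but no array of either group was above background. LHX2, EMX2, and NR2F6, a relative of NR2F1 and NR2F2, were lower by 3.49, 2.53, and 1.88.

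Among 16 genes known as targets of these factors, chiefly of steroid, inhibin, and gonadotropin receptor pathways, 7 were higher and 8 lower in TH than in GC, with a median of 0.013. Of all genes, 11.8% were higher and 14.5% lower. CYP17A1, INSL3, FSHR, CYP19A1, AMH, and INHBA in this list were also among the cell type markers above, so their differences are not separate support. CYP17A1, the enzyme of androgen synthesis, was higher in TH by 5.90 ± 0.54 (adjusted p = 9.4e-07; above background on 1 of 4 GC arrays), and INSL3, a theca hormone, by 3.13 ± 0.43 (adjusted p = 5.5e-05). FSHR, the receptor of follicle-stimulating hormone, and CYP19A1, the aromatase, were lower in TH by 5.41 ± 0.34 (adjusted p = 2.3e-08) and 4.50 ± 0.74 (adjusted p = 0.00029). Between CC and GC, 2 of the 16 were higher (AMH by 1.28 ± 0.31, adjusted p = 0.015, and INHBB), and STAR, which brings cholesterol into mitochondria, was lower by 3.16 ± 0.64 (adjusted p = 0.0051). The shares of all genes were 5.28% higher and 4.61% lower in CC. The call of AMH was lost without GC replicate 3 (adjusted p = 0.056) and that of INHBB without any one of GC replicates 1 to 3 or of the CC arrays (adjusted p up to 0.095).

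Of the same 16 targets, 7 were higher and 6 lower after IVM, beside 30.3% and 15.5% of all genes. Their median was 0.45, close to that of all genes (0.37). SCARB1, the lipoprotein receptor that supplies cholesterol, was higher by 1.67 ± 0.36 (adjusted p = 0.0060), INHBA, a subunit of activin and inhibin, by 1.07 ± 0.17 (adjusted p = 0.0011; 0.27 with quantile normalization, adjusted p = 0.20), and FDX1, which carries electrons to steroidogenic enzymes, by 1.39 ± 0.21 (adjusted p = 0.00081). AMHR2, the receptor of anti-Müllerian hormone, was at least 1.95-fold lower (adjusted p = 0.00052; −0.020 with normexp background correction, adjusted p = 0.88), and HSD3B was lower by 1.37 ± 0.24 (adjusted p = 0.0020). In OO, 14 of 16 targets were lower, INHA by 7.53 ± 0.20, while STAR and FDX1 were higher. Of all genes, 38.3% were lower and 32.9% higher in OO.

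Another pair of lists covers the genes on either side of gonadal fate. Of 8 genes of the ovarian side, 5 were lower in TH than in GC and 2 higher, with a median of −2.10. The shares of all genes were 14.5% lower and 11.8% higher. ESR2, the estrogen receptor of granulosa cells, was lower by 3.57 ± 0.25 (adjusted p = 6.7e-08), and FOXO1 by 2.57 ± 0.13 (adjusted p = 5.0e-09). Between CC and GC, limma called 0 of the 8, beside 5.28% of all genes higher and 4.61% lower. Of the 8 genes, 3 had an unadjusted p under 0.05. After IVM, BMP2 was 6.11 ± 0.53 higher (adjusted p = 3.6e-05), LGR5 at least 5.10-fold higher, with no CC array above background before IVM, and FOXO1 was 1.35 ± 0.29 lower (adjusted p = 0.0055).

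Of 6 genes of the testis side, which FOXL2 is known to hold down, 2 were called between TH and GC, 1 between CC and GC, and 0 between TH and CC by limma, where 0 also had an unadjusted p under 0.05. Of all genes, 11.8% were called higher and 14.5% lower in TH minus GC. The shares were 5.28% and 4.61% in CC minus GC, and 14.4% and 17.4% in TH minus CC. PTGDS, a prostaglandin synthase, was higher than in GC by 2.58 ± 0.44 in TH (adjusted p = 0.00042) and by 1.98 ± 0.44 in CC (adjusted p = 0.0096), and DMRT1 was lower in TH than in GC by 0.79 ± 0.26 (adjusted p = 0.036), a call lost without TH replicate 1, 2, or 4 or GC replicate 1, 2, or 3 (adjusted p up to 0.12) and with a replicate block (adjusted p = 0.056). After IVM, 2 of the 6 were called higher, a share near the 30.3% of all genes. DMRT1 was higher by 1.02 ± 0.30 (adjusted p = 0.024), 0.65 over the median gene, and lost its call without replicate 1 or 2 of CC or replicate 1 or 4 after IVM (adjusted p up to 0.063), with quantile normalization (0.74, adjusted p = 0.12), and with the brightest probe (adjusted p = 0.18). FGF9 was above background on no CC array and on 1 after IVM, so that no fold is given. SOX9, SOX8, SOX10, and PTGDS were not called.

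Over the 16 somatic arrays, IVM included, the genes whose level most resembled each factor were found by Pearson's r among 13274 genes with a symbol. For NR2F2 these were ACVRL1 (r = 0.988), TEK (0.988), and EFNA1 (0.985), and TEK (0.985), EFNA1 (0.978), and ASAM (0.973) for NR2F1. TEK is the angiopoietin receptor of endothelial cells and ACVRL1 a receptor known from them. NR5A2 was nearest to TRIM6 (0.982), GATA4 to RHOT1 (0.976), GATA6 to DPH3 (0.974), RUNX1 to TIGAR (0.982), and WT1 to CLEC3B (0.954). FOXL2, NR5A1, and RUNX2 had weaker nearest genes, DAK (0.932), HIST1H1E (0.921), and SOX4 (0.914). The arrays share 4 groups of 4 and 3 slides, so that any gene with the same group means gives a high r, and these values are a description.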

How the data were processed

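Total RNA of TH, GC, CC, CC after IVM, and OO (4 biological replicates each, per the labels) was labelled with Cy3 and hybridized in 1 colour. For every array the authors deposited its Agilent Feature Extraction 10.7.3.1 output (probes annotated on UMD 3.1), where the intensity of a spot is background-subtracted and detrended but not normalized between arrays. A second file that the authors deposited holds log2 values, which equalled log2 of the median pixel signal minus the array median within 5e-09. Whether a spot was well above background, saturated, or an outlier was read from the same deposited files. Nothing in the labels says which animals or pools gave which replicate, so that p-values measure the spread between these samples.

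After removal of control and outlier spots, log2 processed intensities were expressed relative to the 75th percentile of their array, and a gene's value was the median of its spots. Of 61325 probes, 9779 had no gene name, 734 were named by RefSeq accession, and the rest kept their transcript name, giving 22550 genes. Models were fitted with limma 3.58.1 (lmFit, eBayes) in R 4.3.3 (data.table, version 1.17.8), for the 16 arrays of TH, GC, CC, and OO and, separately, the 8 arrays of CC before and after IVM, with Benjamini–Hochberg adjustment over all genes. Where no array of a group was well above background, the brighter group's mean was set against a limit, on each dim array its own value or its lowest detected signal, whichever was higher. Changes of related factors were compared by exact permutation tests in scipy 1.17.1, with Python 3.11.15, pandas 2.3.3, numpy 2.4.6, and matplotlib 3.10.9.

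The factors and gene lists were chosen with earlier results of these data known. Named were all 10 factors, up to 4 called genes per list, contrast, and direction with the largest differences, and the 3 genes most like each factor. HSD3B1 was read as HSD3B on the array, and PTGS2 and TNFAIP6 were not matched by name. In simulated data with 200 of 22550 genes changed, the fit recovered 14.0% at a log2 change of 1 and 74.5% at 2 between TH and GC, and 0% and 65.0% after IVM. In the data, limma called far more genes, 5937 between TH and GC and 10332 after IVM. The adjustment depends on the share of genes changed, so these recovery rates do not carry over to the data. The number of arrays limits the precision. Alternatives were scaling by quantiles, by the array median, or by a percentile over commonly detected probes, normexp (offset 50), the authors' log2 values, the mean or brightest probe, a filter on dim genes, 1 fit of 20 arrays, the replicate number or slide as a block, fits within a slide, the methods' analysis of variance, and leaving out each array.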

Additional observations from a re-analysis of the deposited data

Results flagged for a closer look

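Of 50 groups of 4 arrays (10 factors in 5 groups), 5 held an array apart from the other 3, as judged by its gap to the nearest array over the range of the group (Dixon's test), and chance marks about 5% of groups, or 1 in 20. FOXL2 in GC was −4.01 on replicate 3, against −3.41 to −3.30 on the others. FOXL2 in CC after IVM was −5.56 on replicate 3, against −6.31 to −6.18, with no array above background. GATA6 in TH was −1.58 on replicate 4, against −0.16 to −0.0074. NR2F2 in OO was 0.98 on replicate 1, against 1.37 on each of the others. RUNX2 in GC was 0.23 on replicate 2, against −1.67 to −1.39, and its difference from CC kept its call without that array.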

How the results depend on the processing

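The counts of called factors stayed within 1.5 times the values given, except between TH and CC within slide 1 (5 against 8) and between CC and GC, where 4 became 2 in the deposited log2 table, 0 within slide 1 and 0 within slide 2, and 2 to 4 with 1 array left out (2 without GC replicate 2, CC replicate 1, or CC replicate 2). The counts of all genes called were 3320 against 7165 between TH and CC within slide 1. Between CC and GC they were 185 and 449 within slides 1 and 2 and 2345 in the deposited log2 table, against 2229. Under normexp background correction the sign turned for RUNX1 in CC minus GC (−0.078), WT1 (−0.57) and FGF9 (−0.26) in OO, NR0B1 after IVM (0.35), and RSPO1 in TH minus GC (−0.12), and with the brightest probe for FSHR after IVM (0.065); the cause was not tested. The comparison of CC before and after IVM within a slide was not possible. Over all genes, the count after IVM, 10332, became 17716 with normexp, 6453 with quantile normalization, 6752 with the filter on dim genes, 6530 without CC replicate 1, and 6604 without CC replicate 3, and the share of these calls that were higher was 66.1%, 83.3%, 43.2%, 48.3%, 56.8%, and 57.9%. With slide as a random block (correlation −0.26) 9 factors were called after IVM, and 15312 of all genes, against 10332 without it. No slide held both groups, so this block cannot separate slide from IVM. This fit is counted among the 19 alternatives after IVM.

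The labels do not say whether replicate numbers pair the samples. Deviations of the 40 pairs of arrays with the same number correlated from −0.18 to 0.37 with a median of 0.027. Those of the 120 pairs with different numbers correlated from −0.39 to 0.31 with a median of −0.0006. These ranges overlap and cannot show whether samples of the same number shared animals or pools. With a replicate block, 6, 8, and 4 factors were called in TH minus GC, TH minus CC, and CC minus GC, 8 in OO (WT1 lost, adjusted p = 0.068), and 8 after IVM (RUNX2 lost, adjusted p = 0.056), and 10 in the F-test. Signal over background limits the dim factors, since RUNX1 in TH, FOXL2 after IVM and in OO, and WT1 in GC, CC, and CC after IVM lay at or near the background.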
